A study of Mus musculus with 6 samples.

Results

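Laminins, integrins and the proteins that link them were followed as a set of 42 genes out of 19938 measured in E13.5 mouse pancreata, with 3 pools of control pancreata against 3 pools of pancreata with activated β-catenin. The set took every laminin chain gene (Lama, Lamb or Lamc with a number), every integrin α and β subunit gene, and Nid1, Nid2, Hspg2, Agrn and Dag1. Each gene entered by name, wherever a row of the array table named it alone. For a gene with several such rows, the row of highest mean over all arrays was used. The set was chosen with earlier results of these data known. It held 10 laminin chains, 27 integrin subunits and 5 linkers.

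Control pools were labelled wild type. The other pools were labelled Pdx-Cre beta catenin-exon3 floxed (active), and are called mutant pools. In these Pdx1-Cre; Ctnnb1tm1Mmt/+ embryos, Cre under the Pdx1 promoter removes exon 3 from a single Ctnnb1 copy in the pancreatic primordium, so that the remaining β-catenin escapes degradation. Recombination is thus driven in the epithelium, whereas the dissected tissue also held mesenchyme, vessels, nerves and blood cells. Each pool was made from 3 pancreata and hybridized to 1 Affymetrix Mouse Gene 1.0 ST array. Strain and sex of the embryos, and whether the controls carried Cre or the floxed allele, are not stated in the sources used.

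Array medians over all genes tested lay between 7.06 and 7.15 on the log2 scale, and no array stood apart from its genotype (r across genes of 0.993 to 0.997 within a genotype and 0.973 to 0.979 between genotypes, where genes are not independent replicates). Ctnnb1 itself had values of 12.36, 12.14, 12.33 in controls and 12.64, 12.37, 12.65 in mutants (log2 change 0.28 ± 0.11 SE, adjusted p = 0.148 from limma). Where its probes lie relative to exon 3 was not examined, so this value does not check the deletion. The tissue label was checked with 8 genes of pancreatic epithelium. The mutant pools had 7 of them lower (87.5%, against 7.53% of all genes tested) and none higher. Pdx1, the factor that marks the pancreatic primordium, measured 9.87 to 9.97 in the control pools and 5.59 to 5.87 in the mutant pools, so the mutant tissue held little of the RNA that defines its label. Neurog3 (log2 change -4.61), Cpa1 (-3.86) and Nkx2-2 (-3.16) fell too.

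A basement membrane is a thin sheet of matrix beneath epithelia and around vessels, muscle and nerve. Laminins are its scaffold and are secreted as trimers of an α, a β and a γ chain. Nidogens and perlecan join that scaffold to the collagen IV network, and agrin ties it to dystroglycan. On the cell side, integrins pair an α with a β subunit, and the pair decides whether the cell holds laminin, collagen, fibronectin and related proteins, or another cell. In the embryonic pancreas the epithelium rests on such a membrane while it branches, with mesenchyme on the far side.

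The mutant pools had 7 of the 42 genes higher and 8 lower (adjusted p under 0.05 from limma, n = 3 pools per genotype). These shares were 16.7% and 19.0%, against 6.59% of all genes tested that were higher and 7.53% that were lower. All 7 that rose were integrins (Itga9, Itga8, Itga2, Itga1, Itgb5, Itgal and Itgb7). Those that fell were 3 laminin chains (Lamc1, Lamb1, Lama5), 2 linkers (Nid2, Dag1) and 3 integrins (Itgb6, Itga6, Itga11). The median log2 change of the set was 0.01, beside 0.03 over all genes tested. In 22 of the 42 genes, or 52.4%, the mutant and control pools did not overlap, which was the case for 30.9% of all genes tested. Without control replicate 3, 4 genes were higher, and without control replicate 1, 5 were lower. The counts over all genes fell in these fits too. They were 953 higher in the former and 1195 lower in the latter, against 1313 and 1502 with all arrays. Because bulk tissue was measured, fewer cells of a type and less RNA per cell cannot be told apart in any of these values.

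**Figure D1:**
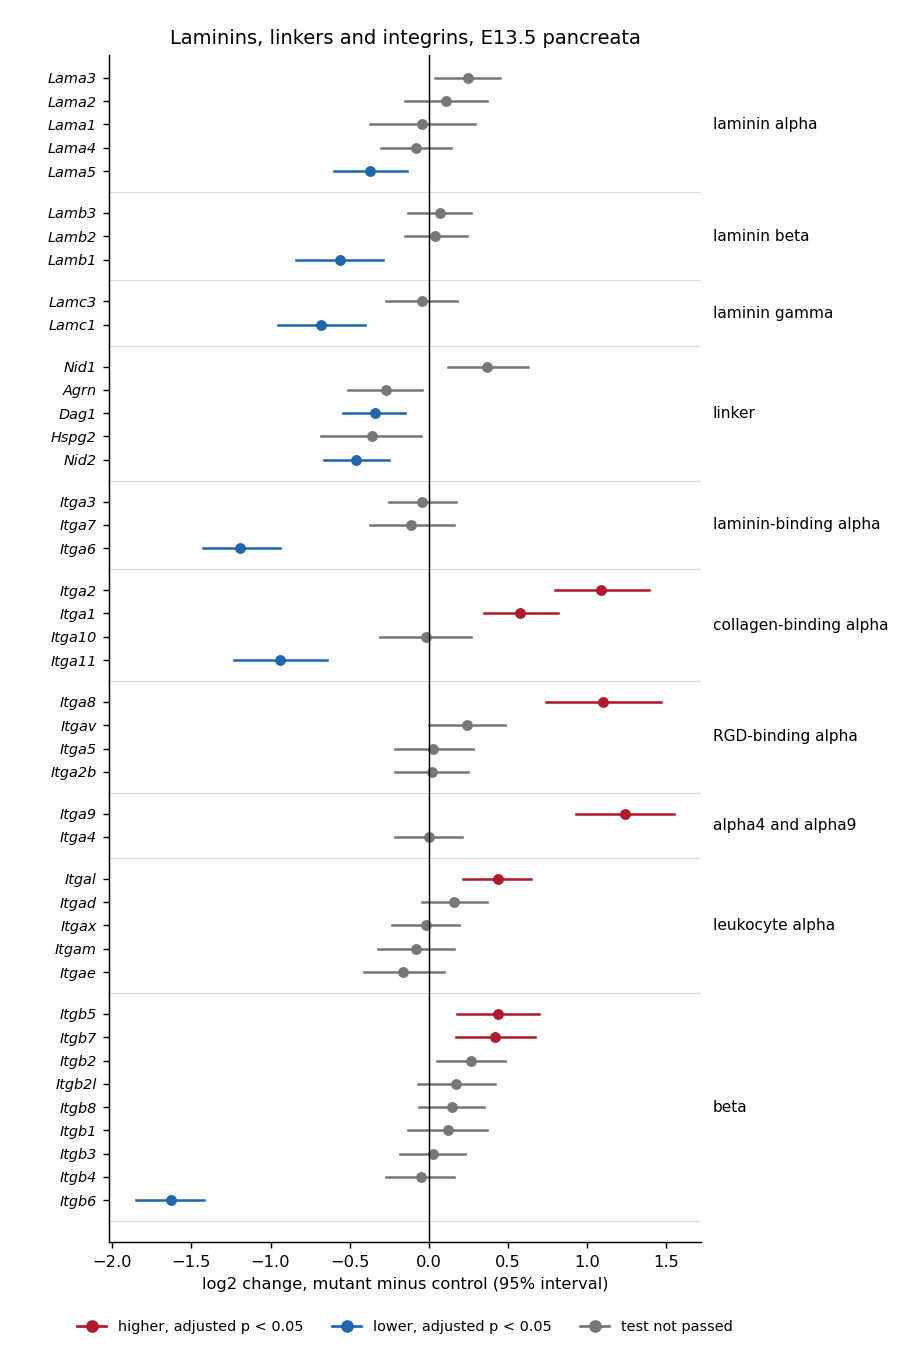
Log2 change (mutant minus control, horizontal axis) of the 42 genes in E13.5 pancreata, grouped by role. Points are limma estimates from 3 pools per genotype, bars are their 95% intervals, red marks the 7 genes that were higher, blue the 8 that were lower and grey the 27 that did not pass the test. All red points are integrins, and the laminin chains and linkers that passed are blue.

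The laminin chains that fell were an α, a β and a γ chain that assemble with each other, and no laminin chain rose. Lamc1, the γ chain of most laminins, measured 10.78, 10.44, 10.69 (log2) in controls and 10.00, 10.10, 9.78 in mutants. Every mutant pool lay below every control pool, a decrease of 1.60-fold (log2 change -0.68 ± 0.12 SE, adjusted p = 0.00419). Lamb1, the β chain made early in development, had values of 9.93, 9.65, 10.03 in controls and 9.31, 9.16, 9.44 in mutants. It fell 1.48-fold (log2 change -0.56 ± 0.12 SE, adjusted p = 0.0121), with mutant pools again below all control pools. Lama5, the α chain of many epithelial basement membranes, read 8.47, 8.33, 8.28 in controls and 8.12, 7.98, 7.86 in mutants. The groups did not overlap, but its decrease was the smallest of the chains that passed, 1.29-fold (log2 change -0.37 ± 0.10 SE, adjusted p = 0.0376). Lama5 no longer passed when any control pool or mutant replicate 2 or 3 was left out (adjusted p from 0.0601 to 0.146), nor with arrays centred on their medians (adjusted p = 0.0618) or on housekeeping genes (adjusted p = 0.0536). Lamb1 lost its call without control replicate 1 (adjusted p = 0.0521) or control replicate 3 (adjusted p = 0.052).

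The remaining 7 laminin chains did not pass the test. Lama1, the α chain of the earliest embryonic basement membranes, had a log2 change of -0.04 with a 95% interval of -0.37 to 0.29, so a decrease as large as that of Lama5 lies within its interval. Lama4, an α chain of vessels and mesenchyme, stood at -0.08 (interval -0.30 to 0.14) and Lama2, an α chain of muscle and nerve, at 0.11 (interval -0.15 to 0.37). Lamb2, the β chain that replaces Lamb1 in muscle and kidney, had a change of 0.04 with an interval of -0.15 to 0.24, which does not reach the estimate for Lamb1. Lama3 and Lamb3 are chains known from stratified and glandular epithelia. Lama3 had values of 5.73, 5.75, 5.66 in controls and 6.05, 5.97, 5.87 in mutants (log2 change 0.25, adjusted p = 0.116), and Lamb3 had a log2 change of 0.07 (interval -0.13 to 0.27). The mutant values of Lama3 lay above all control values without passing the test. Lamc3, a γ chain of some neural tissues and vessels, stood at -0.04 (interval -0.27 to 0.18).

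Among the linkers, Nid2 and Dag1 fell and no linker rose. Nid2 measured 10.23, 10.17, 10.36 in controls and 9.76, 9.85, 9.78 in mutants, and fell 1.37-fold (log2 change -0.46 ± 0.09 SE, adjusted p = 0.00801). Nid1, its close relative with the same role of bridging laminin and collagen IV, measured 10.96, 10.58, 10.89 in controls and 11.22, 11.19, 11.14 in mutants. The mutant pools were above all control pools for Nid1, but its log2 change of 0.37 ± 0.11 SE did not pass the test (adjusted p = 0.0554). It passed with arrays centred on their medians (adjusted p = 0.0449). Dag1 encodes dystroglycan, the receptor that holds laminin through its sugar chains. Its values were 10.83, 10.81, 10.71 in controls and 10.48, 10.43, 10.41 in mutants. That is a decrease of 1.27-fold (log2 change -0.34 ± 0.09 SE, adjusted p = 0.0267) with spreads of 0.06 and 0.04 (SD) within the groups. Leaving out control replicate 1 or replicate 2 or mutant replicate 1 or replicate 3 ended the call of Dag1 (adjusted p from 0.0686 to 0.104). Hspg2 (perlecan) and Agrn (agrin), large heparan sulfate proteoglycans, had log2 changes of -0.36 (adjusted p = 0.132) and -0.27 (adjusted p = 0.131), and the pools overlapped for Hspg2 but not for Agrn.

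Laminin-binding integrins were represented by Itga3, Itga6 and Itga7. Itga6, the partner of Itgb4 in hemidesmosomes and of Itgb1 elsewhere, was measured at 10.29, 10.53, 10.31 in controls and 9.27, 9.02, 9.27 in mutants. The gap between the groups was far wider than the spread within them, a decrease of 2.28-fold (log2 change -1.19 ± 0.11 SE, adjusted p = 6.17e-05). Itga3, which also pairs with Itgb1 to hold laminin, had a log2 change of -0.04 with an interval of -0.25 to 0.17, and Itga7, known from muscle, had -0.11 with an interval of -0.37 to 0.16. Neither interval reaches a decrease as large as that of Itga6. Itga7 had a control mean of 6.07, below the array medians of genes (7.06 to 7.15). With no detection call it is not known how far Itga7 stood above background, so its interval cannot show that its RNA was unchanged. Itgb4, for which Itga6 is the known partner, measured 7.70, 7.80, 7.60 in controls and 7.71, 7.54, 7.69 in mutants. Its pools overlapped, and the interval of its change was -0.27 to 0.16.

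Collagen-binding integrins moved in both directions. Itga2, which binds fibrillar and network collagens, had values of 8.10, 7.81, 8.07 in controls and 9.26, 8.82, 9.18 in mutants. It rose 2.13-fold (log2 change 1.09 ± 0.13 SE, adjusted p = 0.000358), and each mutant pool lay above each control pool. Itga1, a receptor for collagen IV that smooth muscle and vessels are known to use, measured 7.06, 6.98, 7.02 in controls and 7.79, 7.53, 7.5 in mutants, an increase of 1.5-fold (log2 change 0.58 ± 0.10 SE, adjusted p = 0.00368). In contrast, Itga11, a fibrillar collagen receptor of mesenchymal cells, fell 1.92-fold, from 7.83, 7.94 and 7.91 in the control pools to 7.17, 6.66 and 7.04 in the mutant pools (log2 change -0.94 ± 0.13 SE, adjusted p = 0.000886). Itga10, the collagen receptor of cartilage, had a log2 change of -0.02 (interval -0.31 to 0.27). All these α subunits pair with Itgb1, which itself had a log2 change of 0.12 with an interval of -0.13 to 0.37.

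Itga2 and Itga1 are neighbours on chromosome 13 and were the collagen receptors that rose, so their promoters are printed, from 250 bases before to 50 bases after the RefSeq start (GRCm38.p6, minus strand for both, 5′ to 3′). RefSeq also places the short gene Pelo inside Itga1, and the row used here names Itga1 alone. The promoters lie at chr13:115101915-115102214 for Itga1 and chr13:114932051-114932350 for Itga2, and capitals mark a match to the TCF/LEF motif, through which β-catenin acts on DNA.
Itga1: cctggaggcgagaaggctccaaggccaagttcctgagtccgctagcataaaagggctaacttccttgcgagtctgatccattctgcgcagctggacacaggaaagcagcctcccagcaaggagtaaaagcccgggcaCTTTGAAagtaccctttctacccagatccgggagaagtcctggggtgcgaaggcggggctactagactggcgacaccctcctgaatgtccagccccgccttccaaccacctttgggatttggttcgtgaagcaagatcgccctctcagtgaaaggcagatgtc
Itga2: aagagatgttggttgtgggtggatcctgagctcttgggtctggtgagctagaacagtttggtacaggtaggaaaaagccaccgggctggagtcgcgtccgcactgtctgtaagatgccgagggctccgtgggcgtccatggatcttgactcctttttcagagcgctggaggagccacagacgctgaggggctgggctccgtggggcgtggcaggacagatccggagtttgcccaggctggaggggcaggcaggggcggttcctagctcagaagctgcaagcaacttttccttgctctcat
Both strands were searched. For TCF/LEF the letters were CTTTGAA, the variant form CTTTGAT, the variant form CTTTGTA and the variant form CTTTGTT, and for forkhead factors the letters were TGTTTAC. A promoter was found for 28 of the 42 genes, among them 6 that rose and 5 that fell. A TCF/LEF match was present in 3 of the 28, or 10.7%, compared with 16.5% of the tested genes that had a promoter. The matches were in Itga1, where CTTTGAA begins at position -113 from the start, and in Itga10 and Agrn. Of the 28, 0 held the forkhead letters, which 3.54% of tested genes hold. A match describes the sequence and is not a measured binding site.

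The largest changes of the set in either direction were in integrins that hold fibronectin, tenascin and related proteins. Itgb6 pairs with Itgav in epithelia and is known for releasing active TGF-β. It measured 6.90, 6.78, 6.75 in controls and 5.06, 5.22, 5.24 in mutants, a decrease of 3.10-fold (log2 change -1.63 ± 0.10 SE, adjusted p = 2.75e-06). The mutant values lay below the lower quartile of genes on each mutant array (5.35 to 5.52), and with no detection call it is not known how far they stood above background, so the fold is that of the array values only. Itga9 binds tenascin-C and other matrix proteins when paired with Itgb1. Its values were 8.77, 8.27, 8.75 in controls and 9.89, 9.75, 9.87 in mutants, an increase of 2.36-fold (log2 change 1.24 ± 0.14 SE, adjusted p = 0.000193). Itga8, an RGD-binding subunit of mesenchyme and smooth muscle best known as the receptor of nephronectin, had values of 8.94, 8.44, 8.32 in controls and 9.58, 9.54, 9.87 in mutants. It rose 2.15-fold (log2 change 1.10 ± 0.16 SE, adjusted p = 0.00124), although the control pools were more spread (SD 0.33) than for any other of the 42 genes. Itgb5, another partner of Itgav and a receptor for vitronectin, measured 10.37, 10.04, 10.13 in controls and 10.72, 10.47, 10.67 in mutants. The groups did not overlap and it rose 1.36-fold (log2 change 0.44 ± 0.12 SE, adjusted p = 0.0294). The call of Itgb5 was lost without control replicate 2 or replicate 3 or mutant replicate 1 or replicate 3 (adjusted p from 0.089 to 0.126).

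The other subunits of this class did not pass. Itgav, the shared partner of several β subunits, measured 10.13, 10.00, 10.08 in controls and 10.49, 10.15, 10.30 in mutants, with a log2 change of 0.24 (adjusted p = 0.191) and no overlap. Itgb8, like Itgb6 a partner of Itgav that releases TGF-β, stood at 0.15 (interval -0.06 to 0.35), an interval that does not reach the decrease of Itgb6. Itga5, the main fibronectin receptor subunit, stood at 0.03 (interval -0.21 to 0.28) and Itga4, which binds fibronectin and VCAM1, at 0.00 (interval -0.21 to 0.21). The platelet pair Itga2b and Itgb3 had log2 changes of 0.02 and 0.03. Of 7 megakaryocyte markers 0 passed the limma test in either direction and 0 had an unadjusted p under 0.05 (smallest adjusted p 0.538, for Clec1b). Of all genes tested 14.1% passed.

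**Figure D2:**
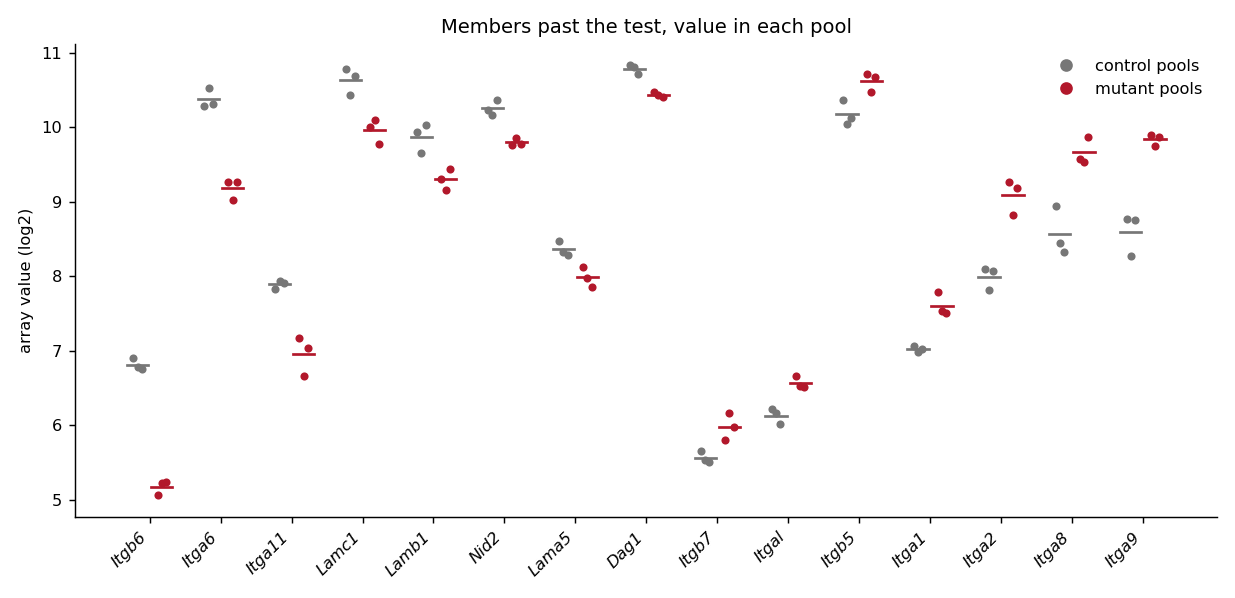
Array value (log2, vertical axis) of the 15 genes past the test in 3 control pools (grey points) and in 3 mutant pools (red points) of E13.5 pancreata, with horizontal bars at the group means. The genes run from the largest decrease, Itgb6, to the largest increase, Itga9, and in each of them the red points lie on the same side of all grey points.

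Integrins of leukocytes were the remaining group. Itgal, the α subunit of LFA-1, measured 6.22, 6.16, 6.01 in controls and 6.66, 6.52, 6.51 in mutants, and rose 1.35-fold (log2 change 0.44 ± 0.10 SE, adjusted p = 0.0131). Itgb7, which pairs with Itga4 or Itgae on lymphocytes and mast cell precursors, had values of 5.65, 5.53, 5.50 in controls and 5.80, 6.16, 5.97 in mutants. It rose 1.34-fold (log2 change 0.42 ± 0.11 SE, adjusted p = 0.0334). Both rises were small next to those of Itga9 or Itga2. Itgal lost its call without control replicate 3 (adjusted p = 0.0519) or mutant replicate 1 (adjusted p = 0.0758). Itgb7 lost it when any control pool or mutant replicate 2 or 3 was left out (adjusted p from 0.0572 to 0.107). It also did so with arrays centred on housekeeping genes (adjusted p = 0.0509) and with array weights (adjusted p = 0.068). The control values of Itgb7 lay close to the lower quartile of genes on the control arrays (5.40 to 5.42). With no detection call it is not known how far they stood above background. Itgb2, the β subunit of LFA-1, measured 5.95, 6.04, 5.92 in controls and 6.12, 6.26, 6.34 in mutants, with a log2 change of 0.27 (adjusted p = 0.104). Its mutant pools were all above its control pools. Itgad, Itgax, Itgam, Itgae and Itgb2l ranged from -0.16 (Itgae) to 0.17 (Itgb2l), and none of them passed. Itgad has a further row on the array, and rows that name Itgam together with the ribosomal gene Rpl35 were not used. Leukocyte markers beside these genes had 1 of 14 higher, Coro1a (log2 change 0.60), and none lower. That is 7.14%, close to the 6.59% of all genes tested that were higher. Mean levels of these markers were 7.5 to 7.67 in the control pools and 7.64 to 7.85 in the mutant pools. Of 10 mast cell markers, 6 were higher (60.0%, against the same 6.59%) and none was lower, with mean levels of 6.1 to 6.41 in the control pools and 7.25 to 7.63 in the mutant pools. Hdc (log2 change 5.37), Mcpt4 (2.16), Cpa3 (1.82) and Cma1 (1.12) rose most. Kit, Tpsb2, Ms4a2 and Fcer1a did not pass, and the lowest log2 change in the mast cell list was -0.24. The part of these cells in the rises of Itgal and Itgb7 was not tested.

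Ratios of related genes within each array do not depend on a constant added to the array, as in either centring, and they show where relatives changed unequally. The 6 pairs were chosen after their values were seen, so the ratios are given without a test and relative to the control mean. The ratio of Itgb5 to Itgb6, both partners of Itgav, was between -0.11 and 0.10 (log2) in the control pools and between 1.88 and 2.29 in the mutant pools. For Itga2 over Itga11 it was -0.23 to 0.17 in the control pools and 1.99 to 2.07 in the mutant pools. The log2 differences were 2.07 for the former pair, which rests on the low mutant values of Itgb6, and 2.03 for the latter. The ratio of Nid1 to Nid2 was -0.15 to 0.17 in the control pools and 0.78 to 0.91 in the mutant pools. Against Itga6, the ratio of Itgb4 was higher by 1.13 and that of Itga3 by 1.15. The smallest difference was that of Lama1 over Lama5, at -0.27 to 0.17 in the control pools and 0.24 to 0.47 in the mutant pools.

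**Figure D3:**
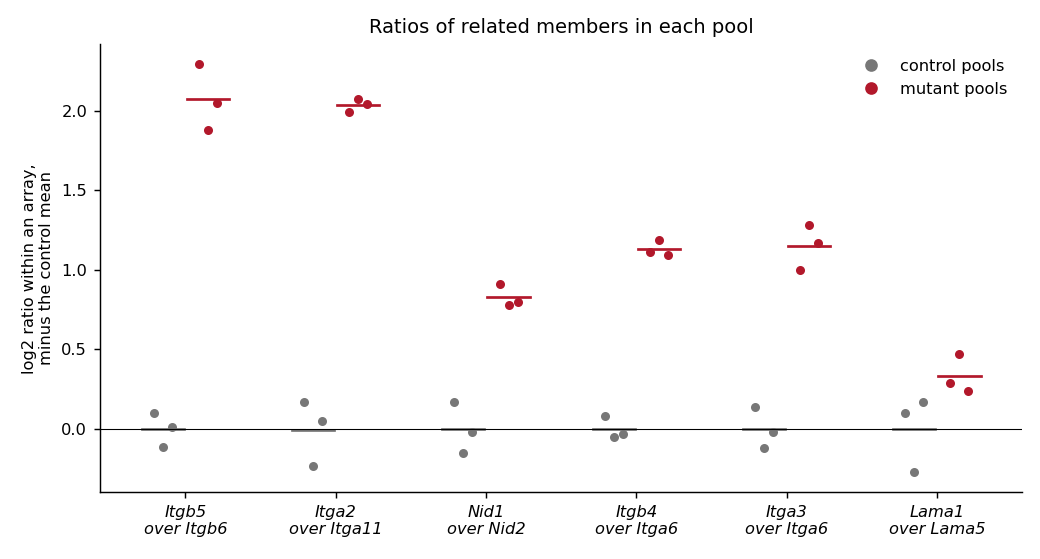
Log2 ratio of 6 pairs of related genes within each array, minus the control mean (vertical axis), with control pools in grey, mutant pools in red and horizontal bars at the group means. Red points lie above grey points in every pair, from 0.33 for Lama1 over Lama5 to 2.07 for Itgb5 over Itgb6.

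Ligands that integrins hold, here called matrix ligands, were followed as a list of 20 measured genes. Besides matrix proteins the list held cell-surface ligands and the growth factor gene Tgfb1. Of the 20, 8 were higher, 1 was lower and 11 did not pass (40.0% and 5.0%, against 6.59% and 7.53% of all genes tested). The median log2 change was 0.26. Among the 8 that were higher, Icam2 (log2 change 0.50), of the cell surface, and Tgfb1 (0.70) are not matrix proteins. Tnc, or tenascin-C, measured 6.97, 6.60, 6.69 in controls and 9.18, 9.35, 9.14 in mutants (log2 change 2.47 ± 0.12 SE, adjusted p = 7.88e-07). Thbs1 (log2 change 1.71) and Thbs2 (0.99), the thrombospondins, rose as well. Fn1, fibronectin, had a log2 change of 0.64 (adjusted p = 0.00208). The gene that fell was Vtn, vitronectin, from 10.40, 10.57 and 10.38 to 6.05, 6.02 and 6.02 (log2 change -4.42 ± 0.09 SE, adjusted p = 8.17e-09). Thus the genes of Itga9 and its ligand tenascin-C both rose, whereas those of Itgb5 and its ligand vitronectin went in opposite directions. Npnt, or nephronectin, had values of 10.51, 10.25, 10.53 in controls and 10.18, 10.34, 10.15 in mutants, which overlapped (log2 change -0.21, adjusted p = 0.276). Fn1, Npnt, Icam2 and Tgfb1 were named after their values were seen.

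Inside the cell, integrins are tied to actin by talin, kindlins, the ILK complex and related proteins. Among 28 such focal adhesion genes 8 rose, 3 fell and 17 did not pass, with a median log2 change of 0.14. These were 28.6% and 10.7%, against 6.59% higher and 7.53% lower among all genes tested. The kindlin genes Fermt1 and Fermt2 differed in direction. Fermt1, the kindlin of epithelia, measured 9.69, 9.88, 9.59 in controls and 9.08, 8.68, 8.81 in mutants (log2 change -0.86 ± 0.13 SE, adjusted p = 0.00113), while Fermt2, the kindlin of mesenchyme and muscle, measured 10.13, 10.32 and 10.23 against 10.81, 10.71 and 10.82 (log2 change 0.56 ± 0.09 SE, adjusted p = 0.0026). Parvg, a parvin of blood cells, rose (0.72) and Ptk2b, a kinase related to FAK, fell (-1.08). Without control replicate 1 or replicate 3, 4 of these genes were higher, and without mutant replicate 1 or replicate 3, 5 were. Over all genes tested these fits gave 937, 953, 843 and 949 higher, against 1313 with all arrays.

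Of 12 genes of the dystrophin complex that holds dystroglycan on the inside of the membrane, 1 was higher and 4 were lower, with a median log2 change of 0.07. The shares were 8.33% and 33.3%, beside 6.59% and 7.53% over all genes tested. The dystrobrevins moved apart, with Dtna at 6.70, 6.66, 6.76 in controls and 8.47, 8.18, 8.31 in mutants (log2 change 1.61 ± 0.10 SE, adjusted p = 4.31e-06) and Dtnb at a log2 change of -0.71 (adjusted p = 0.00219). Sntb1, a syntrophin, fell (-0.63), and Utrn, utrophin, fell (-0.54, adjusted p = 0.0397). Utrn did not pass without control replicate 1 or replicate 3 or any 1 mutant pool (adjusted p from 0.0598 to 0.125). In each of these fits 2 genes of the list were lower. Over all genes tested these fits gave from 1132 to 1413 lower, against 1502 with all arrays. Of 9 enzymes that build the laminin-binding sugar of dystroglycan, 0 passed the limma test in either direction, against 14.1% of all genes tested. Of these enzymes 2 had an unadjusted p under 0.05, with the smallest for Pomgnt2 (log2 change -0.25, adjusted p = 0.143). Among 6 hemidesmosome genes 1 rose and 2 fell, with a median log2 change of -0.21, which is 16.7% and 33.3% beside the same 6.59% and 7.53%. Dst, which links Itgb4 to keratin, fell (log2 change -0.88 ± 0.11 SE, adjusted p = 0.000491), and Plec, with the same role, had a log2 change of -0.34 (adjusted p = 0.152). The tetraspanin Cd151, which travels with laminin-binding integrins and is also counted in the focal adhesion list, fell (-0.33, adjusted p = 0.048), and Krt5 rose (0.52, adjusted p = 0.0233). Neither held in every smaller set of pools. Krt5 did not pass without control replicate 1 or replicate 3 or mutant replicate 1 or replicate 3 (adjusted p from 0.0716 to 0.0988), and Cd151 did not pass without control replicate 1 or replicate 2 or any 1 mutant pool (adjusted p from 0.0854 to 0.18).

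**Figure D4:**
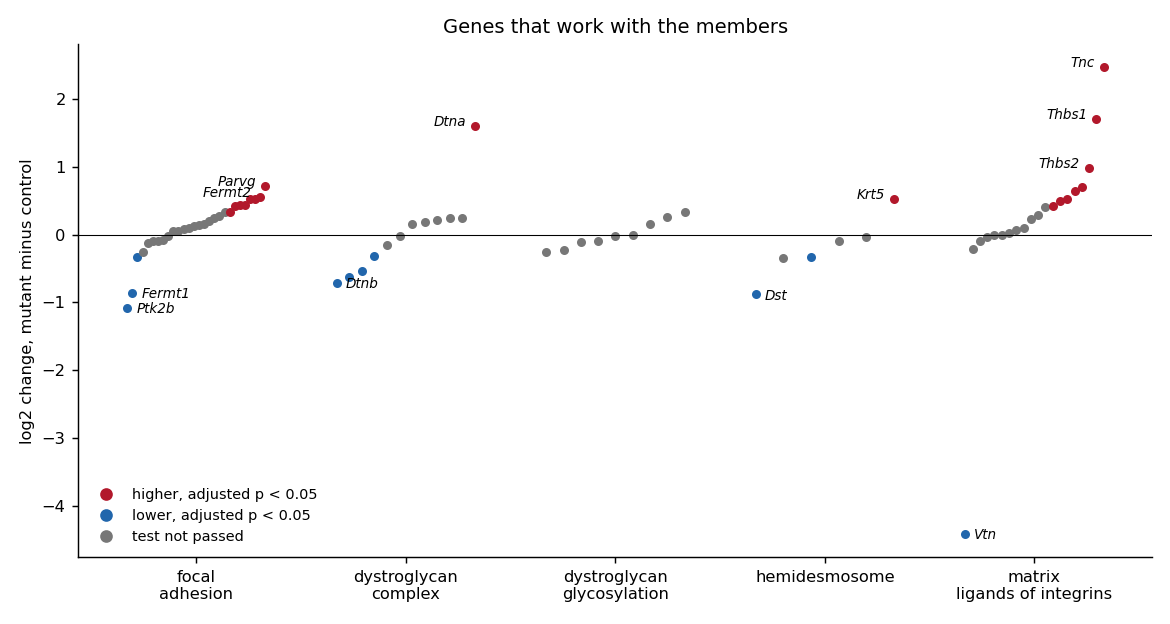
Log2 change (mutant minus control, vertical axis) of genes that work with laminins and integrins, 1 point per gene and 1 column per list, from 3 pools per genotype of E13.5 pancreata. Red points were higher and blue points lower by limma (adjusted p under 0.05), and the matrix ligands span the widest range, from Vtn at -4.42 to Tnc at 2.47.

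Markers of the cell types that use these genes also differed between the groups. The share of each list is given in brackets, against 6.59% of all genes tested that were higher and 7.53% that were lower. Without 1 array, from 843 to 1328 of all genes were higher and from 1132 to 1413 lower, against 1313 and 1502 with all arrays. Of 15 general epithelial genes, 14 were lower (93.3%) and none was higher. Their mean levels were 9.67 to 9.89 in the control pools and 8.72 to 8.84 in the mutant pools, and the markers Krt8 and Cdh1 had log2 changes of -1.84 and -1.68. Ehf (-1.97) and Cldn3 (-1.30) fell as well. These values stand beside the decreases of Itgb6, Itga6, Lama5 and Fermt1. Lama3 (log2 change 0.25) and Lamb3 (0.07), the chains named above as known from stratified and glandular epithelia, did not pass. Nor did Itgb4 (-0.05), the hemidesmosome partner of Itga6, or Itga3 (-0.04), and Itga2 rose (1.09). Epcam, another epithelial marker, measured 9.53 to 9.80 in the control pools and 9.15 to 9.37 in the mutant pools. Of 12 smooth muscle genes, 8 were higher (66.7%) and 2 lower (16.7%). Their mean levels were 7.15 to 7.23 in the control pools and 7.76 to 7.87 in the mutant pools, beside the increases of Itga8, Itga9 and Itga1. Itga7 (log2 change -0.11) and Lama2 (0.11), known from muscle, did not pass. The smooth muscle genes that rose most were Actg2 (log2 change 1.84), Myocd (1.70), Acta2 (1.5) and Synpo2 (1.47). The 2 that fell were Des (-1.11, adjusted p = 0.000244 from limma) and Kcnmb1 (-0.90, adjusted p = 0.00219). Endothelial genes had 4 of 15 higher (26.7%) and none lower, with mean levels of 8.72 to 8.86 and 9.01 to 9.18. Those that rose were Sox17 (log2 change 1.99), Sox18 (0.61), Erg (0.42) and Cdh5 (0.32). The other 11 did not pass and ranged from Robo4 (-0.32) to Tek (0.34), with Pecam1 at 0.20 and Kdr at 0.02. Cdh5 passed in no fit without 1 array (adjusted p from 0.0561 to 0.153). Without control replicate 3, mutant replicate 1 or mutant replicate 3 only Sox17 was higher, 2 were higher without control replicate 1, and Robo4 was lower without control replicate 3. General mesenchymal genes had 5 of 16 higher (31.2%) and 3 lower (18.8%), and their mean levels overlapped (9.76 to 9.95 in the control pools and 9.73 to 9.83 in the mutant pools). Prrx1 (log2 change -2.49) and Zeb1 (-0.89) fell, and Lum (0.84) and Twist1 (0.57) rose. The number higher was 2 without control replicate 2 or mutant replicate 1, and 3 without control replicate 1 or mutant replicate 3, and Lum passed in none of these. Of 9 neural and glial genes 6 were lower and 1 was higher, with mean levels of 7.46 to 7.57 and 6.76 to 6.80, and the mesothelial list had 4 of 8 lower and none higher (8.08 to 8.36 and 7.76 to 8.07). Ret (log2 change -2.59), Dcx (-2.32) and Tubb3 (-0.66) fell and Ednrb (0.89) rose among the former, and Lrrn4 (-0.94), Krt19 (-0.79), Wt1 (-0.52) and Upk3b (-0.51) fell among the latter. Krt19 is also in the epithelial list and is counted in both. Without control replicate 2, control replicate 3 or mutant replicate 1, 2 mesothelial genes were lower, Lrrn4 and Krt19, as Wt1 and Upk3b no longer passed. The part of these cell types in the changes of laminins, linkers and integrins was not tested.

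**Figure D5:**
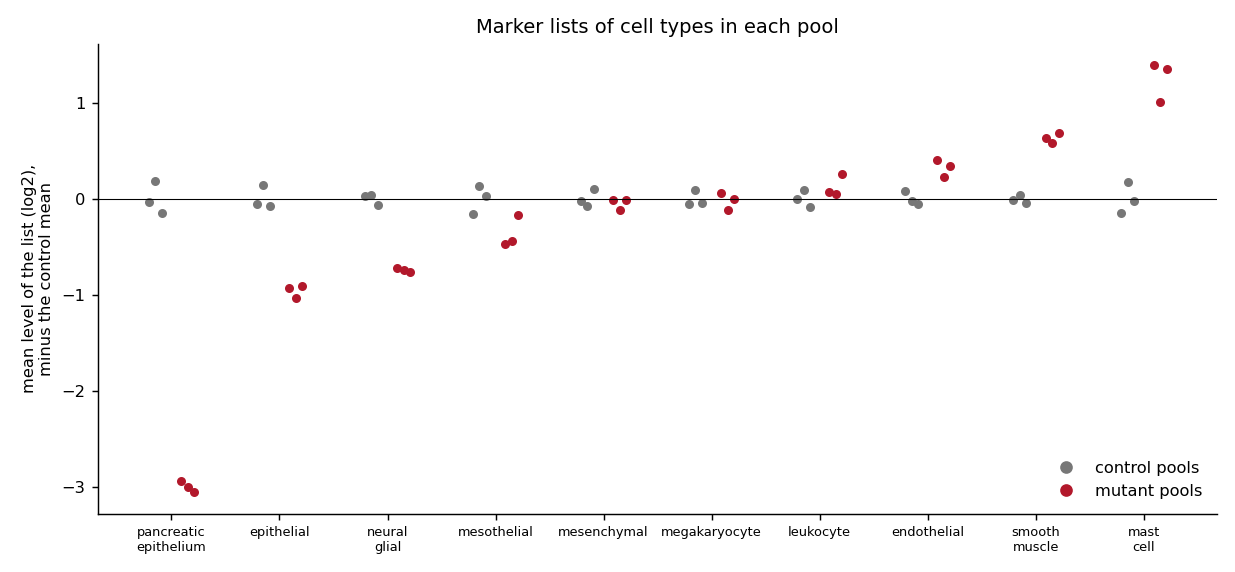
Mean array value of the marker genes of 10 cell types in each pool, minus the control mean (log2, vertical axis), with control pools in grey and mutant pools in red. The lists of pancreatic epithelium, general epithelium, neural and glial cells and mesothelium lie below the control pools and those of endothelium, smooth muscle and mast cells above them.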

How the data were processed

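RNA was measured in 6 pools of E13.5 pancreata, 3 control and 3 mutant, grouped by the sample labels. The authors deposited expression on a log2 scale, a row for each transcript cluster. How they corrected background, summarized probes and normalized arrays is not stated in the sources used, nor is a genome build. No detection call was used, so the number of arrays limits the precision. Of 35556 rows, 21789 had 1 gene symbol, 1621 had several and 12146 had none. Only rows with 1 symbol were tested, taking the row of highest mean for each of 999 genes with several, which left 19938 genes. Entrez identifiers of 21698 rows matched RefSeq (GRCm38.p6), which changed 0 symbols.

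Mutant was compared with control in limma 3.58.1 (R 4.3.3) with its default empirical Bayes step, which the study's methods also name, and no covariate or filter. P-values were adjusted after Benjamini and Hochberg across the 19938 genes, with a threshold of 0.05. Adjusted p-values and 95% intervals come from this fit, except where the text names a left-out array, another scaling, array weights or the replicate block, whose values come from a refit. The fitting step was tested on simulated data. With 3 against 3 pools an exact permutation test cannot go below p = 0.1. The set, the lists and the tests were chosen with earlier results of these data known. Every gene of the set is named. Of each other list up to 4 genes are named, by size of change among those that passed, or the gene of smallest p where none did. Plec, Epcam, Fn1, Npnt, Icam2, Tgfb1, Des and Kcnmb1 were named after their values were seen. So were the mast cell genes Kit, Tpsb2, Ms4a2 and Fcer1a and the endothelial genes Pecam1, Kdr, Tek and Robo4. Alternatives were a block for the replicate number, leaving out each array, scaling by medians, housekeeping genes or quantiles, filters on dim genes, averaging the rows of a gene, fitting every row, a trended and robust prior, array weights and other thresholds. Promoters come from RefSeq, and tables and figures were made with Python 3.11.15, pandas 2.3.3 and matplotlib 3.10.9.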

Additional observations from a re-analysis of the deposited data

How the results depend on the processing

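Of the 15 laminin, linker and integrin genes that passed, 9 passed under each alternative they entered, the other 6 (Dag1, Itgal, Itgb5, Itgb7, Lama5 and Lamb1) lost the call under at least 1, and none changed sign. Of the 27 that did not pass, 6 passed under at least 1. Counts are given as higher and lower. For the set (7 and 8) they were 4 and 5 with every row fitted, 4 and 5 at an adjusted p under 0.01, and 3 and 2 with at least a 2-fold change, and from 4 to 6 and from 5 to 7 without 1 array. Focal adhesion genes (8 and 3) gave 4 higher with every row fitted, 4 higher at 0.01, and 0 and 1 with 2-fold, and from 4 to 8 and from 2 to 3 without 1 array. In the dystrophin complex (1 and 4), 2 were lower with either centring, 1 was lower with every row fitted or at 0.01, 0 were lower with 2-fold, 4 were higher with array weights, and from 2 to 4 were lower without 1 array. Among the glycosylation enzymes (0 and 0), array weights gave 2 higher and 1 lower, and leaving out 1 array from 0 to 1 higher. Hemidesmosome genes (1 and 2) gave 0 higher above the median level, a fit that Krt5, the gene that was higher, did not enter. They gave 0 and 1 with every row fitted or at 0.01, 0 and 0 with 2-fold, 1 lower with either centring, and from 0 to 1 and from 1 to 2 without 1 array. Matrix ligands (8 and 1) gave 2 higher with 2-fold, 2 lower with array weights and 7 to 8 higher without 1 array. The labels do not say whether equal replicate numbers pair the samples. Same-number correlations of deviations from the group means (0.014, -0.154 and -0.046) lay within the range of the other pairs (-0.186 to 0.195). With 3 pools per genotype this cannot exclude a pairing. With the replicate block the set had 6 higher and 7 lower, losing Itgb7 (adjusted p = 0.0797) and Dag1 (adjusted p = 0.059), the dystrophin complex had 2 lower, and the hemidesmosome list had 0 higher and 1 lower. Apart from the absence of Krt5 from a fit, the causes of these shifts were not tested. Over all genes, 1313 were higher and 1502 lower. These counts were 751 and 1028 with every row fitted, 1011 and 1274 with the replicate block, and 3025 and 2422 with array weights. Without 1 array they were from 843 (without mutant replicate 1) to 1328 higher and from 1132 to 1413 lower.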
